A study of Mus musculus with 4 samples.

Results

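The interferon genes described here are 48 mouse genes of the interferon system, namely the receptor subunits, the IRF and STAT transcription factors and the genes that interferon induces. Their probes were taken by gene symbol, and 42 of them had a probe on the chip, 1 probe each. Of these, 39 had a value on all 4 arrays and were tested, among 13765 genes tested in all. Ifit1, Irf8 and Oas3 were blank on at least 1 array. Isg15, Oas1g, Ifi47, Gbp3, Xaf1 and Igtp had no named probe and were not analysed here. Both groups were NSCL61 cells, a line that models glioma-initiating cells and was made from p53-deficient mouse neural stem cells by expressing an oncogenic HRas. Per the labels the line is of brain origin, strain C57BL6 and developmental stage P0. The 2 control arrays are labelled as NSCL61 alone, and the series title speaks of a control hairpin. The 2 other arrays are labelled as NSCL61 with shRNA, which the title assigns to Eva1, the cell adhesion gene now named Mpzl2. Per the protocols, the Eva1 shRNA cells were transfected and selected with hygromycin. The labels give neither the hairpin sequence nor whether a clone or a pool was used, and do not say whether arrays of the same group stem from different cultures. The p-values therefore measure only the spread between these samples, and that spread may be technical.

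Interferons are secreted antiviral proteins. Type I interferons bind the receptor of Ifnar1 and Ifnar2, and the receptor-bound kinases Jak1 and Tyk2 then activate STAT factors. Stat2 acts with Irf9 in a complex that binds the interferon-stimulated response element (ISRE) of target genes. Type II interferon binds the receptor of Ifngr1 and Ifngr2 and acts mainly through a gamma-activated site (GAS). The induced genes restrict viruses by degrading RNA, blocking entry or translation, and trapping particles, and several are part of the sensing machinery itself. Many tumour cell lines hold a basal level of these genes without added interferon.

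ISRE and GAS letters were searched in the promoters of the interferon genes, since these are the sequences through which the genes are known to respond together. The ISRE was searched as GAAA followed after any 2 bases by GAAA again, and the GAS as TTCNNNGAA, on both strands (the GAS letters read the same on either) and counting overlapping matches, in RefSeq windows of 300 bases that run from 250 bases before each annotated start to 50 after it (GRCm38.p6). Of the 48 genes 40 had a window. Dhx58, Zbp1, Oas1b, Oas2, Mx1, Mx2, Iigp1 and Usp18 had none. ISRE letters were found for 18 of the 40 genes, against 3.99% of all 27025 genes with a window, and GAS letters for 14 of 40, against 9.55%. The 6 promoters below belong to 3 genes that were lower in the Eva1 shRNA cells (Oas1a, Bst2, Irgm1) and 3 that were higher (Gbp2, Ifit3, Rsad2). They were picked among genes whose window held ISRE letters, so finding the letters in both kinds was set by that choice. Other genes of both kinds had a window without ISRE letters, as counted further below. Each line gives the 250 bases before the start, 5′ to 3′ along the gene, and capitals mark the ISRE letters or their reverse complement.
Oas1a (chr5:120907526-120907775, strand -): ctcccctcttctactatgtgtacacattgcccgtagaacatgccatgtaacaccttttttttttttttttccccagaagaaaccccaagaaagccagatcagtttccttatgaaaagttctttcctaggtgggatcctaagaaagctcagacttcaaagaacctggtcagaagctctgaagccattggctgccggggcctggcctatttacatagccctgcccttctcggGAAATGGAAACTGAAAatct
Bst2 (chr8:71537473-71537722, strand -): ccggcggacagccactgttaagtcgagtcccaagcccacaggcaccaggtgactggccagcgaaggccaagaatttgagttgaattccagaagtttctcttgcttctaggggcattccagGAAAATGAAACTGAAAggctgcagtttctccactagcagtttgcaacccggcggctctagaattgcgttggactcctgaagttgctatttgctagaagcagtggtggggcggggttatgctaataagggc
Irgm1 (chr11:48871421-48871670, strand -): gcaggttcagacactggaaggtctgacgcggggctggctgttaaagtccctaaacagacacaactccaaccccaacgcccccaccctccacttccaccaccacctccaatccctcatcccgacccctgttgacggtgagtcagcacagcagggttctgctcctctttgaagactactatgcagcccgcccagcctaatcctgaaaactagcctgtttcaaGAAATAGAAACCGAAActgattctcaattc
Gbp2 (chr3:142620413-142620662, strand +): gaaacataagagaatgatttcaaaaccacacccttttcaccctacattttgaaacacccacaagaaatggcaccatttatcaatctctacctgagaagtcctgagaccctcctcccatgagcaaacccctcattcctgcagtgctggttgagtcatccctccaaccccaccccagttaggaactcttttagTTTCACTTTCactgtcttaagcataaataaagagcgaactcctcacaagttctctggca
Ifit3 (chr19:34583279-34583528, strand +): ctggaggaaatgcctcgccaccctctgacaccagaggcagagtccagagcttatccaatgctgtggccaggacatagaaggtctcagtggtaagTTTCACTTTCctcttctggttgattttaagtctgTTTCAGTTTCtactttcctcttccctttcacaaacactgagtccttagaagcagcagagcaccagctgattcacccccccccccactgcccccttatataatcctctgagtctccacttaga
Rsad2 (chr12:26456453-26456702, strand -): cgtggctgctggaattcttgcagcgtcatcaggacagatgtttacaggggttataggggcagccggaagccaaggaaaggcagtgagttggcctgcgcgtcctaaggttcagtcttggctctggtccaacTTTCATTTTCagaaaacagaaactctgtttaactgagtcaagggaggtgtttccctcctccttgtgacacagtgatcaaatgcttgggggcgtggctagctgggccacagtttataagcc
In Oas1a, Bst2 and Irgm1 the capitals hold 2 overlapping matches on the gene's own strand, which begin 20, 130 and 30 bases before the start. Those of Gbp2, Ifit3 and Rsad2 lie on the opposite strand. The match of Gbp2 begins 59 bases before the start, that of Rsad2 120 bases before it, and Ifit3 holds 2 separate matches, 156 and 122 bases before it. A match is a description of letters and not a measured binding site.

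Mpzl2 itself, the target of the hairpin, had intensities of 55.0 and 54.4 (control) and 8.20 and 6.21 (Eva1 shRNA), a fall on both arrays with a log2 change of -3.12 (standard error 0.17, limma adjusted p = 0.00172 over probes), or -1.71 after adding 16 intensity units to damp changes of dim probes. The control arrays gave values for 20662 and 20934 of 23473 probes and the Eva1 shRNA arrays for 21842 and 21513, so more cells were blank in the control group. Genes blank on any array, among them those read only in the Eva1 shRNA cells, stand outside the counts of falls and rises. Of the neural stem cell markers 7 were measured on all arrays, and 3 of these fell, against 13.5% of all genes tested. The 3 were Itga6 (log2 change -2.12), Fabp7 (-1.15, or -0.59 with 16 units added) and Cd44 (-0.76, or -0.28). Nes, Vim, Msi1 and Hes1 did not pass, Prom1 was blank on 1 control array and Sox2 had no named probe. Of 13 microglia and macrophage markers 10 were measured on all arrays, with a summed intensity of 239 to 276 (control) and 187 to 195 (Eva1 shRNA). The largest part of that sum was Cd68. Cd68 fell (log2 change -1.17), as did the dim Fcer1g (-1.06, or -0.39 with 16 units added). These were 2 of the 10, against 13.5% of all genes tested. Csf1r, Cx3cr1 and C1qc were higher on both Eva1 shRNA arrays than on both control arrays, without passing. Of all genes 32.6% stood apart in that direction. Ptprc was blank on both control arrays and Adgre1 on 3 arrays. The summed intensity was 28.5 to 29.6 (control) and 30.3 to 39.6 (Eva1 shRNA) for 6 lymphocyte markers, 12.005 to 18.1 (control) and 20.01 to 21.8 (Eva1 shRNA) for 2 endothelial markers and 825 to 912 (control) and 1149 to 1293 (Eva1 shRNA) for 6 fibroblast markers. These sums are of deposited intensities, and with that scaling the median log2 change of all genes was 0.18. Of the lymphocyte markers Ms4a1 rose and 0 fell, and of the endothelial markers Emcn rose and 0 fell, against 12.5% and 13.5% of all genes. Both were dim (log2 change 0.71 and 0.76, or 0.12 and 0.15 with 16 units added). The largest part of the fibroblast sum was Col3a1, which did not pass. Col1a2 and Pdgfrb rose, Dcn was lower on both Eva1 shRNA arrays (log2 change -2.02) without passing, and Col1a1 and Lum overlapped. Among plasmacytoid dendritic cell markers Bst2 is itself an interferon gene described here, and Siglech had intensities of 15.3 and 18.9 (control) and 15.9 and 19.4 (Eva1 shRNA). The part of other cell types in the results was not tested. In RNA from whole cultures fewer expressing cells and less RNA per cell cannot be told apart.

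The comparison set the interferon genes of the Eva1 shRNA cells against those of the control cells. The control arrays are labelled NSCL61 alone, although the series title speaks of a control hairpin. The labels do not settle whether the control cells were transfected and selected as well. A loss of Eva1 therefore cannot be told apart from transfection, hygromycin selection or the hairpin itself. Most interferon genes that changed were lower in the Eva1 shRNA cells, led by the RNA-degradation pathway gene Oas1a and the virus-tethering gene Bst2. Gbp2, Ifit2, Ifit3 and Rsad2 were higher. Of the 39 tested genes 19 fell (48.7%), against 13.5% of all 13765 genes tested, and 4 rose (10.3%), against 12.5%. The other 16 did not pass the test at an adjusted p under 0.05 (limma, two-sided, adjusted over all genes). In either direction 59.0% passed, against 26.0% of all genes. The median log2 change of the 39 genes was -0.59, and that of all genes was -0.01. The groups did not overlap for 34 of the 39 genes (87.2%), against 66.7% of all genes. In 28 of them the Eva1 shRNA arrays were lower and in 6 higher, against 34.1% and 32.6% of all genes. At least 2-fold changes among the calls were 12 falls and 3 rises, and 6.41% and 5.17% of all genes were called at that distance. With the authors' scaling between arrays, which moved the median change of all genes to 0.18, 15 of the interferon genes fell and 5 rose. Log2 changes are Eva1 shRNA minus control after quantile normalization, with 2 arrays per group, and intensities are as deposited, on a linear scale with an array median near 25.

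**Figure D1:**
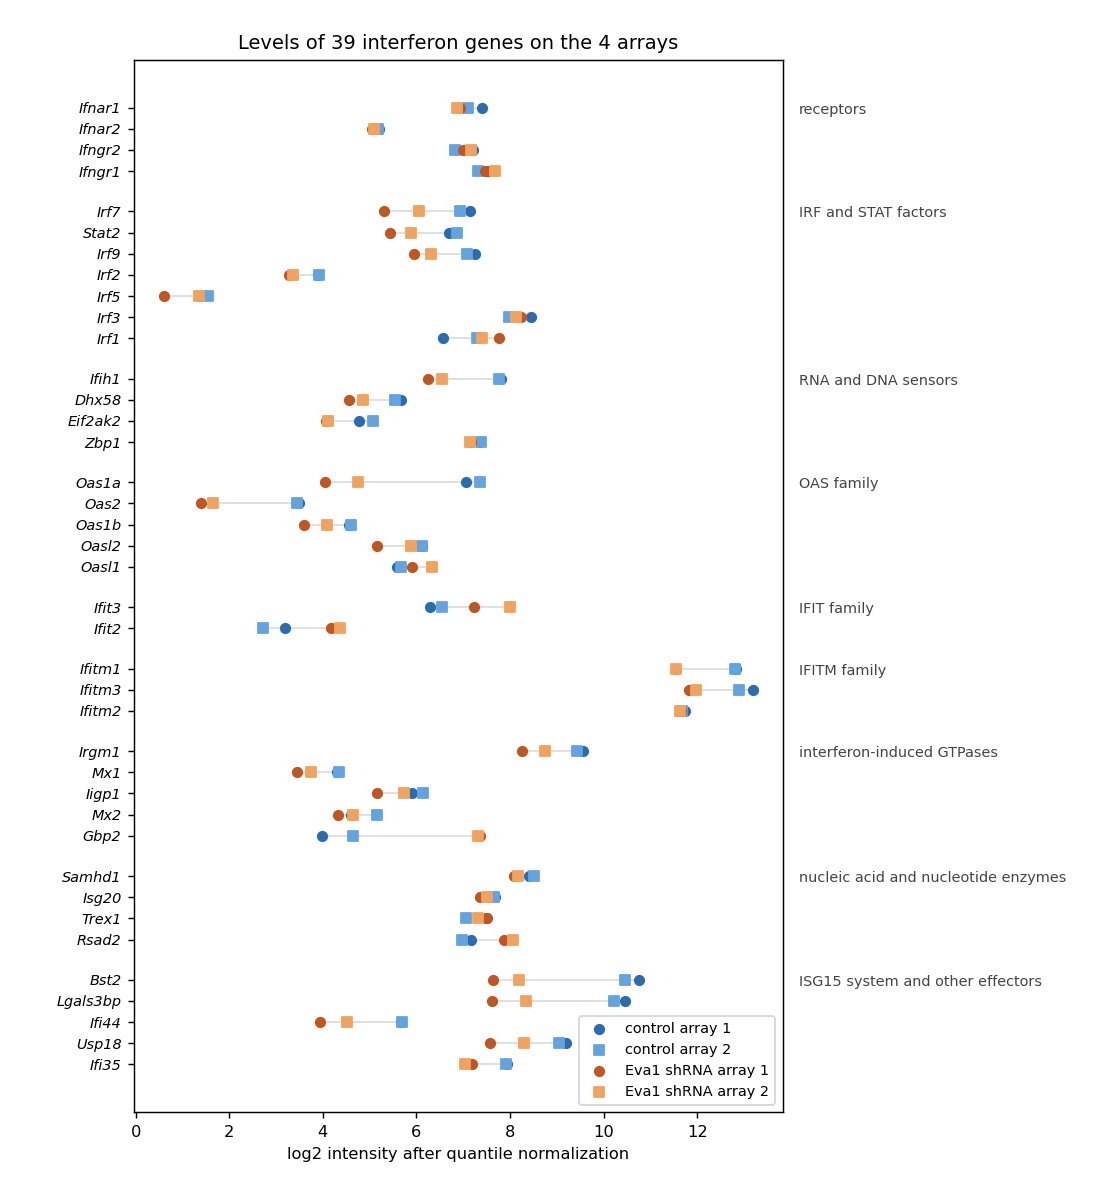
Log2 intensity after quantile normalization (x axis) of the 39 tested interferon genes (rows, grouped by role) on each of the 2 control arrays (blue) and 2 Eva1 shRNA arrays (orange). Grey lines join the lowest and highest array, and Oas1a, Bst2 and Lgals3bp show wide gaps with Eva1 shRNA lower, while Gbp2 shows one with Eva1 shRNA higher.

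None of the 4 receptor subunit genes passed the test, which 26.0% of all genes passed. Ifnar1, a subunit of the type I interferon receptor, had intensities of 158 and 130.2 in the control pair against 134 and 121 in the Eva1 shRNA pair, and a log2 change of -0.36 (standard error 0.16, adjusted p = 0.168). Its partner Ifnar2 had intensities of 33.5 and 34.4 (control) and 36.9 and 35.5 (Eva1 shRNA) and a log2 change of -0.12 (standard error 0.13, adjusted p = 0.562). For the type II receptor, Ifngr1, the ligand-binding subunit, was at 172 and 152 (control) and 193 and 212 (Eva1 shRNA) with a change of 0.15 (standard error 0.16, adjusted p = 0.537). Ifngr2, the second chain, was at 137 and 107 (control) and 140.1 and 151 (Eva1 shRNA) with a change of 0.074 (standard error 0.18, adjusted p = 0.795). After normalization the 2 groups overlapped for Ifngr1 and Ifngr2, and for Ifnar1 and Ifnar2 both Eva1 shRNA arrays were lower, although the deposited values of Ifnar2 were higher there. The sign of Ifnar2 turned with the authors' scaling (0.092), and that of Ifngr2 without control array 2 (-0.10) or Eva1 shRNA array 2 (-0.013), so neither has a direction. The standard errors of the 4 genes were 0.13 to 0.18, and a p above the threshold does not show that the levels were equal.

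Of the 7 tested IRF and STAT factors 4 fell and 0 rose, against 13.5% and 12.5% of all genes. Stat2 and Irf9 of the ISRE-binding complex were among those that fell. Stat2 had intensities of 95.5 and 109 in the control pair against 47.4 and 60.6 in the Eva1 shRNA pair, a log2 change of -1.12 (standard error 0.20, adjusted p = 0.0144). Irf9, the DNA-binding partner of Stat2, had intensities of 143 and 127 (control) and 67.0 and 83.1 (Eva1 shRNA) and fell 2.06-fold, a log2 change of -1.05 (standard error 0.18, adjusted p = 0.0144). Irf7, which drives interferon alpha genes and is itself induced by interferon, was at 133 and 114 (control) and 43.4 and 68.9 (Eva1 shRNA) and had a log2 change of -1.36 (standard error 0.27, adjusted p = 0.0206). For these 3 genes every Eva1 shRNA array was below every control array, and Eva1 shRNA array 1 was the lower of its group. Irf2, known as an antagonist of Irf1, was dim on all arrays, at 13.4 and 14.5 (control) and 10.9 and 10.9 (Eva1 shRNA), with a change of -0.59 (standard error 0.14, adjusted p = 0.0322), or -0.26 after adding 16 intensity units, which damps changes of dim probes.

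The other IRF genes did not pass. Irf1, an activator induced by interferon gamma, was at 86.9 and 149 (control) and 238 and 177 (Eva1 shRNA), with the control arrays far apart and no overlap between groups, and had a log2 change of 0.66 (standard error 0.28, adjusted p = 0.145). It passed when the dimmest 25% of probes were left out (0.0464), after adding 16 units (0.0468) and in the fit with a variance trend (0.0167), in a range of 0.0167 to 0.430 over the alternatives. Irf3, the factor activated directly by nucleic acid sensing, was at 329 and 240.0 (control) and 328 and 291 (Eva1 shRNA), overlapped between groups and had a change of -0.039 (standard error 0.20, adjusted p = 0.903), with a sign that turned with the authors' scaling (0.14), on omitting control array 1 (0.20) or Eva1 shRNA array 2 (0.019). Irf5 lay near the lowest values of the arrays, at 2.38 and 2.86 (control) and 1.47 and 2.57 (Eva1 shRNA), with a change of -0.49 (standard error 0.27, adjusted p = 0.233). Irf8, a factor of myeloid cells, was blank on control array 1 and Eva1 shRNA array 2 and was listed at 1.92 and 1.37 on the others.

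The calls of the factors kept their direction in every alternative run, but not always their side of the threshold. In adjusted p, the call of Irf7 was lost after filling blank cells (0.0816) and on omitting control array 1 (0.0966) or 2 (0.0650) or Eva1 shRNA array 1 (0.0607), in a range of 6.59e-05 to 0.0966 over its 12 alternatives. For the partner genes, the call of Irf9 was lost after filling blank cells (0.0511) and on omitting control array 1 (0.0705) or Eva1 shRNA array 1 (0.0750), in a range of 7.92e-05 to 0.0750 over its 12 alternatives, and the call of Stat2 was lost after filling blank cells (0.0548) and on omitting control array 1 (0.0542) or 2 (0.0620) or Eva1 shRNA array 1 (0.0693), in a range of 7.45e-05 to 0.0693 over its 12 alternatives. The call of Irf2 was lost with the authors' scaling (0.115), with 16 units added (0.0545) and on omitting control array 1 (0.0914) or 2 (0.0858) or Eva1 shRNA array 1 (0.161) or 2 (0.114), in a range of 0.00717 to 0.161 over its 12 alternatives.

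Among the sensors of foreign or displaced nucleic acid 3 of 4 fell, against 13.5% of all genes. Ifih1, the cytosolic sensor of long double-stranded RNA also called MDA5, had intensities of 213 and 205 in the control pair against 83.1 and 98.3 in the Eva1 shRNA pair, a 2.63-fold fall and a log2 change of -1.39 (standard error 0.17, adjusted p = 0.00509). Its call held in all 12 alternatives. Dhx58 (LGP2), a relative of Ifih1 that modulates its signalling, was at 46.9 and 44.5 (control) and 25.7 and 30.2 (Eva1 shRNA), with a log2 change of -0.90 (standard error 0.17, adjusted p = 0.0173). Eif2ak2 (PKR), the kinase that halts translation on binding double-stranded RNA, was at 24.8 and 31.8 (control) and 18.5 and 18.2 (Eva1 shRNA) and had a change of -0.83 (standard error 0.16, adjusted p = 0.0200), or -0.49 with 16 units added. Zbp1, a sensor of Z-form nucleic acid, was at 153 and 157 (control) and 156 and 147 (Eva1 shRNA) and did not pass, with a change of -0.21 (standard error 0.13, adjusted p = 0.307). In adjusted p, the call of Dhx58 was lost on omitting control array 1 (0.0766) or 2 (0.0536) or Eva1 shRNA array 1 (0.0941), in a range of 0.000632 to 0.0941 over its 12 alternatives. The call of Eif2ak2 was lost with the authors' scaling (0.0509), after filling blank cells (0.0506) and on omitting control array 2 (0.0620) or Eva1 shRNA array 1 (0.105) or 2 (0.0879), in a range of 0.00221 to 0.105 over its 12 alternatives.

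In the OAS family 3 of 5 tested genes fell and 0 rose, against 13.5% and 12.5% of all genes. Several enzymes of the family make the 2-5A signal that activates RNase L. Oas1a had intensities of 124 and 156 in the control pair against 18.5 and 28.0 in the Eva1 shRNA pair, a 7.01-fold fall and number 44 when the falls of all genes were ranked by size. Its log2 change was -2.81 (standard error 0.27, adjusted p = 0.00288), or -2.13 with 16 units added, and the call held in all 12 alternatives. Oas2 was dim on all arrays, at 9.98 and 10.4 (control) and 2.87 and 3.25 (Eva1 shRNA), and had a log2 change of -1.94 (standard error 0.16, adjusted p = 0.00210), or -0.52 with 16 units added. The call of Oas2 held in the 11 alternatives that tested it. Oas1b, known as the flavivirus resistance gene of mice, was at 21.5 and 23.3 (control) and 13.5 and 17.8 (Eva1 shRNA), with a change of -0.75 (standard error 0.20, adjusted p = 0.0480), or -0.40 with 16 units added, and the call of Oas1b was lost with the authors' scaling (0.0865), after filling blank cells (0.111) and on omitting control array 1 (0.135) or 2 (0.133) or Eva1 shRNA array 1 (0.185), in a range of 0.00849 to 0.185 over its 12 alternatives.

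The OAS-like genes did not pass, and their changes had opposite signs. Oasl1, which represses translation of Irf7, had intensities of 44.5 and 48.8 (control) and 65.4 and 84.4 (Eva1 shRNA), higher on both Eva1 shRNA arrays, and a log2 change of 0.49 (standard error 0.19, adjusted p = 0.110). It passed with the authors' scaling (0.0443), when the dimmest 25% of probes were left out (0.0405), after adding 16 units (0.0365) and in the fit with a variance trend (0.0292). Oasl2 was at 63.9 and 65.7 (control) and 39.4 and 60.8 (Eva1 shRNA), with array 1 of the Eva1 shRNA group far below array 2, and a change of -0.60 (standard error 0.26, adjusted p = 0.144). It passed when the dimmest 25% of probes were left out (0.0481) and in the fit with a variance trend (0.0256). Over their alternatives the adjusted p ran from 0.0292 to 0.407 for Oasl1 and from 0.0256 to 0.485 for Oasl2. Oas3 was blank on all 4 arrays. Genes of this family, of the IFIT family and of the IFITM family are close relatives, and signal shared between their probes was not tested.

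**Figure D2:**
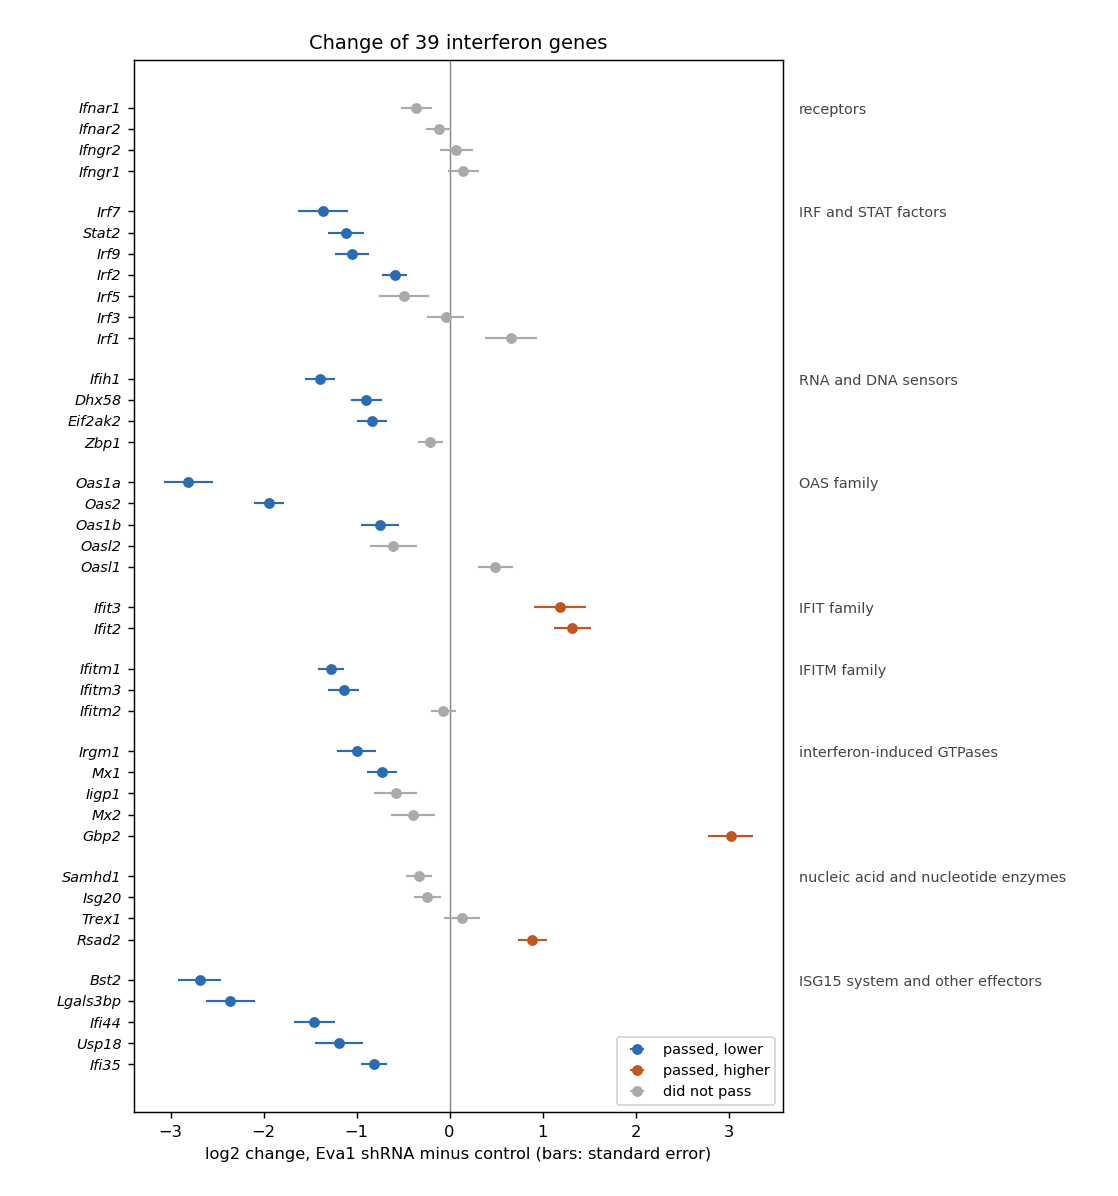
Log2 change, Eva1 shRNA minus control (x axis), of the 39 tested interferon genes with the standard error of limma's fit as bars. Blue points are the 19 genes that passed lower, orange points the 4 that passed higher and grey points the 16 that did not pass.

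Both tested IFIT genes rose, against 12.5% of all genes and opposite to the direction of most other effectors. Ifit2, an RNA-binding inhibitor of translation, was dim in the control cells and had intensities of 8.04 and 6.39 in the control pair against 20.03 and 21.6 in the Eva1 shRNA pair. Its log2 change was 1.32 (standard error 0.20, adjusted p = 0.00989), or 0.57 with 16 units added. Ifit3, which stabilises the complex of IFIT proteins, had intensities of 72.5 and 87.6 (control) and 161 and 263 (Eva1 shRNA) and a log2 change of 1.19 (standard error 0.28, adjusted p = 0.0324), with Eva1 shRNA array 2 well above array 1. Every Eva1 shRNA array was above every control array for both. Ifit1, the cap-sensing member, was blank on both control arrays and listed at 2.03 and 2.18 on the Eva1 shRNA arrays, close to the lowest values of those arrays (1.19 and 1.22). In adjusted p, the call of Ifit2 was lost on omitting Eva1 shRNA array 2 (0.0592), in a range of 0.000320 to 0.0592 over its 12 alternatives, and the call of Ifit3 was lost after filling blank cells (0.107) and on omitting control array 1 (0.133) or 2 (0.0820) or Eva1 shRNA array 2 (0.0909), in a range of 0.000226 to 0.133 over its 12 alternatives.

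Of the 3 IFITM genes, whose membrane proteins block the entry of enveloped viruses, Ifitm1 and Ifitm3 fell, against 13.5% of all genes. Ifitm1 had intensities of 6841 and 6563 in the control pair against 3231 and 3070.3 in the Eva1 shRNA pair, a log2 change of -1.28 (standard error 0.13, adjusted p = 0.00382) and a call that held in all 12 alternatives. Ifitm3 was at 8510.2 and 6838 (control) and 3929.9 and 4251 (Eva1 shRNA), with a log2 change of -1.14 (standard error 0.17, adjusted p = 0.00895). Both Eva1 shRNA arrays were below both control arrays for each, by more than the gap within either group. Ifitm2 was at 3284 and 3038 (control) and 3479 and 3311 (Eva1 shRNA) and did not pass, with a change of -0.067 (standard error 0.14, adjusted p = 0.752) and a sign that turned with the authors' scaling (0.10). The call of Ifitm3 was lost on omitting Eva1 shRNA array 1 (0.0632), in a range of 8.2e-06 to 0.0632 over its 12 alternatives.

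The 5 tested interferon-induced GTPases split, with Gbp2 higher and Irgm1 and Mx1 lower. Of all genes 12.5% rose and 13.5% fell. Gbp2, a guanylate-binding protein that attacks the membranes around intracellular pathogens, had intensities of 14.1 and 23.9 in the control pair against 178 and 166 in the Eva1 shRNA pair. This was an 8.13-fold rise, number 51 among the rises of all genes by size, with a log2 change of 3.02 (standard error 0.24, adjusted p = 0.00205) that became 2.30 with 16 units added, and the call held in all 12 alternatives. Irgm1, an immunity-related GTPase that regulates others of its family, had intensities of 728 and 655 (control) and 331 and 448 (Eva1 shRNA) and a log2 change of -0.998 (standard error 0.21, adjusted p = 0.0231). Mx1, known for restricting influenza virus, was dim on all arrays, at 17.8 and 19.4 (control) and 12.3 and 14.0 (Eva1 shRNA), with a change of -0.72 (standard error 0.16, adjusted p = 0.0276), or -0.36 with 16 units added.

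Mx2 and Iigp1 did not pass. Mx2 was at 22.1 and 33.8 (control) and 22.1 and 26.1 (Eva1 shRNA), with overlapping groups after normalization and a change of -0.39 (standard error 0.23, adjusted p = 0.269). Iigp1, an immunity-related GTPase that coats parasite vacuoles, was at 55.7 and 66.3 (control) and 39.4 and 54.7 (Eva1 shRNA) and had a change of -0.58 (standard error 0.23, adjusted p = 0.123), and it passed when the dimmest 25% of probes were left out (0.0402), after adding 16 units (0.0407) and in the fit with a variance trend (0.0231), in a range of 0.0231 to 0.436 over the alternatives. Of those that passed, the call of Irgm1 was lost after filling blank cells (0.0744) and on omitting control array 1 (0.0983) or 2 (0.0692) or Eva1 shRNA array 1 (0.0946), in a range of 0.000112 to 0.0983 over its 12 alternatives, and the call of Mx1 was lost with the authors' scaling (0.0612), after filling blank cells (0.0586) and on omitting control array 1 (0.0881) or 2 (0.0863) or Eva1 shRNA array 1 (0.139) or 2 (0.0643), in a range of 0.00426 to 0.139 over its 12 alternatives.

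Of 4 enzymes that act on nucleic acids or nucleotides, Rsad2 rose and the others did not pass. Of all genes 12.5% rose and 13.5% fell, and 1 of 4 is too small a count to set apart from these shares. Rsad2 (viperin), which makes a chain-terminating nucleotide, had intensities of 135 and 118 in the control pair against 254 and 277 in the Eva1 shRNA pair, a log2 change of 0.89 (standard error 0.16, adjusted p = 0.0146). Both Eva1 shRNA arrays were above both control arrays, and the 2 arrays of each group lay near each other. Samhd1, which depletes the nucleotide pool, was at 317 and 339.7 (control) and 294 and 299 (Eva1 shRNA), with a change of -0.33 (standard error 0.14, adjusted p = 0.146), and passed with 16 units added (0.0305). Its adjusted p ran from 0.0305 to 0.470 over the alternatives. The exonuclease genes Trex1 and Isg20 did not pass either. Trex1 was at 167 and 126 (control) and 198 and 165 (Eva1 shRNA), with a change of 0.13 (standard error 0.19, adjusted p = 0.647), and Isg20 at 190.4 and 193 (control) and 177 and 189 (Eva1 shRNA), with a change of -0.24 (standard error 0.14, adjusted p = 0.269). The groups of Trex1 overlapped, and its sign turned without control array 2 (-0.072). The call of Rsad2 was lost on omitting control array 2 (0.0561) or Eva1 shRNA array 1 (0.0604) or 2 (0.0847), in a range of 0.000116 to 0.0847 over its 12 alternatives.

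All 5 tested genes of the ISG15 system and the remaining effectors fell, against 13.5% of all genes. Bst2 (tetherin), which holds budding virus particles at the cell surface, had intensities of 1661 and 1316 in the control pair against 217 and 306 in the Eva1 shRNA pair. This was a 6.43-fold fall, number 55 by size, with a log2 change of -2.68 (standard error 0.23, adjusted p = 0.00230). Lgals3bp, a secreted glycoprotein that binds galectins, had intensities of 1348 and 1123 (control) and 214 and 336 (Eva1 shRNA) and fell 5.12-fold, a log2 change of -2.36 (standard error 0.26, adjusted p = 0.00434). The calls of both held in all 12 alternatives. Usp18, which removes ISG15 from proteins and restrains signalling at the type I receptor, was at 559 and 496 (control) and 206 and 327 (Eva1 shRNA), with a log2 change of -1.19 (standard error 0.26, adjusted p = 0.0276). Ifi44 was at 47.0 and 49.8 (control) and 17.0 and 23.9 (Eva1 shRNA) and had a change of -1.46 (standard error 0.22, adjusted p = 0.00942), or -0.95 with 16 units added. Ifi35, a partner of Nmi, was at 233 and 228 (control) and 157 and 138 (Eva1 shRNA) with a change of -0.81 (standard error 0.14, adjusted p = 0.0141). In all 5 the groups stood apart, and in all but Ifi35 the lower Eva1 shRNA array was array 1.

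In adjusted p, the call of Usp18 was lost after filling blank cells (0.0955) and on omitting control array 1 (0.115) or 2 (0.0823) or Eva1 shRNA array 1 (0.0793), in a range of 0.000113 to 0.115 over its 12 alternatives. The call of Ifi44 was lost on omitting control array 1 (0.0522), in a range of 2.71e-05 to 0.0522 over its 12 alternatives, and the call of Ifi35 was lost on omitting control array 1 (0.0599) or Eva1 shRNA array 1 (0.0637) or 2 (0.0852), in a range of 0.000175 to 0.0852 over its 12 alternatives.

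The 2 Eva1 shRNA arrays differed in a regular way over these genes. Of the 19 interferon genes that fell, 18 were lower on Eva1 shRNA array 1 than on array 2, by a median of 0.37 on the log2 scale, and Ifi35 was the exception. Over all 39 tested genes array 1 was lower for 31. Over all 13765 genes array 1 was lower for 50.5%, and over all genes called lower for 58.2%. The control arrays showed no such order, with array 1 below array 2 for 7 of the 19 genes. Without Eva1 shRNA array 1, 7 of the interferon genes fell and 3 rose. Without Eva1 shRNA array 2, 15 fell and 1 rose, and without control arrays 1 and 2, 8 and 10 fell and 3 and 2 rose. A left-out array leaves 1 array in its group, which is then assumed to vary like the other group.

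**Figure D3:**
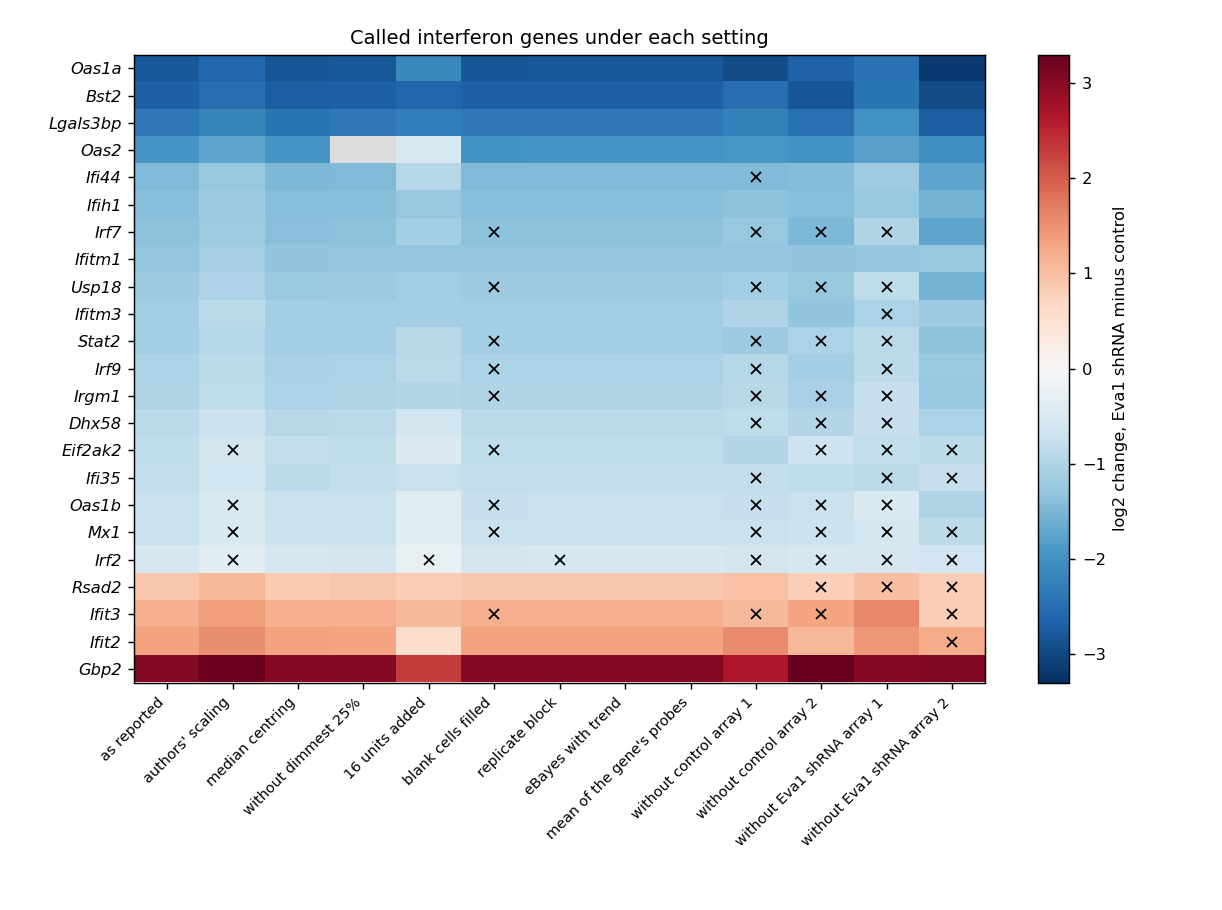
Log2 change, Eva1 shRNA minus control (colour), of the 23 interferon genes that passed the test (rows) as reported and under 12 alternative settings (columns). Crosses mark an adjusted p of 0.05 or more and the grey cell a gene not tested. No gene changes sign, and 7 genes (Oas1a, Bst2, Lgals3bp, Oas2, Ifih1, Ifitm1, Gbp2) carry no cross.

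The promoter letters shown above were set beside the calls. Of the 19 genes that fell 14 had a promoter window, and 8 of these held ISRE letters, in Irf2, Stat2, Ifih1, Eif2ak2, Oas1a, Ifitm3, Irgm1 and Bst2. All 4 genes that rose had a window, and 3 held ISRE letters, in Ifit3, Gbp2 and Rsad2. Of the 13 genes with a window that did not pass 1 held them, in Ifitm2. GAS letters were found for 6 of the 14, for 1 of the 4 (Ifit2) and for 5 of the 13. Over all genes with a window the shares were 3.99% for ISRE letters and 9.55% for GAS letters. The 13 genes include the 4 receptor subunit genes, which neither called group holds, so the groups differ in the roles of their genes. The counts are small and no test was made of them.

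Genes of the pathway outside the 48 were taken from 4 lists, with 89 of 119 genes on the chip and 83 tested. Of these, 24 fell (28.9%), against 13.5% of all genes, and 14 rose (16.9%), which is near the 12.5% of all genes. Among 6 tested interferon ligand genes 2 fell and 0 rose, all dim. Ifnl3, a type III interferon gene, was at 15.2 and 16.2 (control) and 11.95 and 12.4 (Eva1 shRNA) with a change of -0.59 (standard error 0.14, adjusted p = 0.0359), or -0.27 with 16 units added, and Ifne at 29.1 and 24.2 (control) and 20.02 and 19.8 (Eva1 shRNA) with a change of -0.62 (standard error 0.17, adjusted p = 0.0485), or -0.37 with 16 units added. The call of Ifnl3 was lost with the authors' scaling (0.108) and on omitting control array 1 (0.103) or 2 (0.0910) or Eva1 shRNA array 1 (0.178) or 2 (0.106), in a range of 0.00858 to 0.178 over its 12 alternatives, and the call of Ifne was lost with the authors' scaling (0.106), after filling blank cells (0.0888) and on omitting control array 1 (0.142) or Eva1 shRNA array 1 (0.191) or 2 (0.155), in a range of 0.0112 to 0.191 over its 12 alternatives. Ifna13, of the near-identical interferon alpha genes, whose shared signal was not tested, was at 9.53 and 13.4 (control) and 20.7 and 19.8 (Eva1 shRNA) with a change of 0.62 (standard error 0.18, adjusted p = 0.0564), and it passed with the authors' scaling (0.0331), when the dimmest 25% of probes were left out (0.0134), after adding 16 units (0.0430), in the fit with a variance trend (0.0296) and without control array 2 (0.0453), in a range of 0.0134 to 0.189. Ifnb1, the interferon beta gene, was at 4.70 and 3.41 (control) and 6.40 and 7.44 (Eva1 shRNA) with a change of 0.59 (standard error 0.25, adjusted p = 0.139), and it passed with the authors' scaling (0.0425), in a range of 0.0425 to 0.409.

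Of 15 tested nucleic acid sensors and adaptors 4 fell and 3 rose, against 13.5% and 12.5% of all genes, with a median log2 change of -0.04. Tlr4 stands in this list although it is the lipopolysaccharide receptor gene and no nucleic acid sensor. Its intensities rose from 18.4 and 18.5 to 61.6 and 65.7, a log2 change of 1.59 (standard error 0.14, adjusted p = 0.00250). Cgas, the cytosolic DNA sensor gene, rose from 3.76 and 5.80 to 18.9 and 18.7, a change of 1.80 (standard error 0.21, adjusted p = 0.00452), or 0.67 with 16 units added. Tlr3, an endosomal sensor of double-stranded RNA, was at 3.70 and 6.95 (control) and 16.9 and 18.6 (Eva1 shRNA) with a change of 1.59 (standard error 0.28, adjusted p = 0.0149), or 0.59 with 16 units added. Ikbke, a kinase that activates Irf3 and Irf7, was dim at 5.58 and 9.39 (control) and 2.70 and 2.25 (Eva1 shRNA) and fell by 1.74 on the log2 scale (standard error 0.25, adjusted p = 0.00784), or by 0.39 with 16 units added. The other falls, named after their values were seen, were Sting1 with a change of -0.76 (adjusted p = 0.0210), Ticam1 with a change of -0.66 (adjusted p = 0.0348) and Zc3hav1 with a change of -0.82 (adjusted p = 0.0334). Of these, the call of Sting1 was lost on omitting control array 2 (0.0660) or Eva1 shRNA array 1 (0.109) or 2 (0.0990), in a range of 0.000311 to 0.109 over its 12 alternatives. The call of Ticam1 was lost with the authors' scaling (0.103), after filling blank cells (0.0648) and on omitting control array 1 (0.107) or 2 (0.0960) or Eva1 shRNA array 1 (0.0776) or 2 (0.165), in a range of 0.00505 to 0.165 over its 12 alternatives, and the call of Zc3hav1 was lost with the authors' scaling (0.0549), after filling blank cells (0.0862) and on omitting control array 1 (0.118) or 2 (0.0934) or Eva1 shRNA array 1 (0.139), in a range of 0.00105 to 0.139 over its 12 alternatives. The call of Tlr3 was lost after filling blank cells (0.0692) and on omitting Eva1 shRNA array 1 (0.0597) or 2 (0.0774), in a range of 0.000310 to 0.0774 over its 12 alternatives.

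Of 18 tested genes of the JAK-STAT relay and its brakes 3 fell and 3 rose (16.7% each), shares near those of all genes (13.5% and 12.5%), and the median change was -0.12. Ptpn6, a phosphatase best known from blood cells that dampens cytokine signalling, was at 41.6 and 27.6 (control) and 7.99 and 5.35 (Eva1 shRNA), with a log2 change of -2.57 (standard error 0.28, adjusted p = 0.00403), or -1.24 with 16 units added. Tyk2, the kinase of Ifnar1, was at 170.5 and 186 (control) and 105 and 114 (Eva1 shRNA), a change of -0.90 (standard error 0.15, adjusted p = 0.0121), and Stat6, which acts in interleukin signalling, at 9.52 and 8.75 (control) and 5.47 and 4.54 (Eva1 shRNA), a change of -1.09 (standard error 0.16, adjusted p = 0.00889), or -0.33 with 16 units added. Ptpn2, a phosphatase that restrains Jak1, rose from 173 and 179.6 to 395 and 411, a change of 1.01 (standard error 0.14, adjusted p = 0.00746). The other rises, likewise named after their values were seen, were Stat5a with a change of 0.83 (adjusted p = 0.0145; a change of 0.14 with 16 units added) and Irf2bp1 with a change of 0.70 (adjusted p = 0.0269). The call of Stat5a was lost with 16 units added (0.293), with eBayes trend (0.109) and on omitting control array 1 (0.0586) or Eva1 shRNA array 1 (0.0750) or 2 (0.0856), in a range of 0.0104 to 0.293 over its 11 alternatives, and the call of Irf2bp1 was lost after filling blank cells (0.0521) and on omitting control array 2 (0.0797) or Eva1 shRNA array 1 (0.119) or 2 (0.125), in a range of 0.00163 to 0.125 over its 12 alternatives. In adjusted p, the call of Ptpn2 was lost on omitting Eva1 shRNA array 2 (0.0544), in a range of 1.74e-05 to 0.0544 over its 12 alternatives, and the call of Stat6 was lost on omitting Eva1 shRNA array 2 (0.0598), in a range of 0.00508 to 0.0598 over its 11 alternatives. The call of Tyk2 was lost on omitting control array 2 (0.0506) or Eva1 shRNA array 1 (0.0799) or 2 (0.0514), in a range of 0.000103 to 0.0799 over its 12 alternatives.

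Of 44 other interferon-stimulated genes tested 15 fell (34.1%) and 8 rose (18.2%), against 13.5% and 12.5% of all genes, with a median of -0.27. Cxcl10, a chemokine gene, rose from 97.2 and 107 to 1114 and 1098, a log2 change of 3.27 (standard error 0.14, adjusted p = 0.000874). Aim2, a DNA sensor of the inflammasome, was at 193 and 187 (control) and 42.9 and 48.7 (Eva1 shRNA), a change of -2.24 (standard error 0.16, adjusted p = 0.00145). Trim30a, a ubiquitin ligase gene, was at 102 and 114 (control) and 26.6 and 28.7 (Eva1 shRNA), a change of -2.16 (standard error 0.15, adjusted p = 0.00142). Sp100, a nuclear body protein gene, was dim at 11.5 and 13.7 (control) and 3.31 and 4.34 (Eva1 shRNA), with a change of -1.94 (standard error 0.20, adjusted p = 0.00365), or -0.60 with 16 units added. These 4 calls held in every alternative that tested the gene. Of the 15 that fell 11 were lower on Eva1 shRNA array 1 than on array 2. Without 1 array the falls over all 4 lists numbered 15 and 16 (control arrays 1 and 2) and 10 and 14 (Eva1 shRNA arrays 1 and 2), and the rises 8, 8, 6 and 4.

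**Figure D4:**
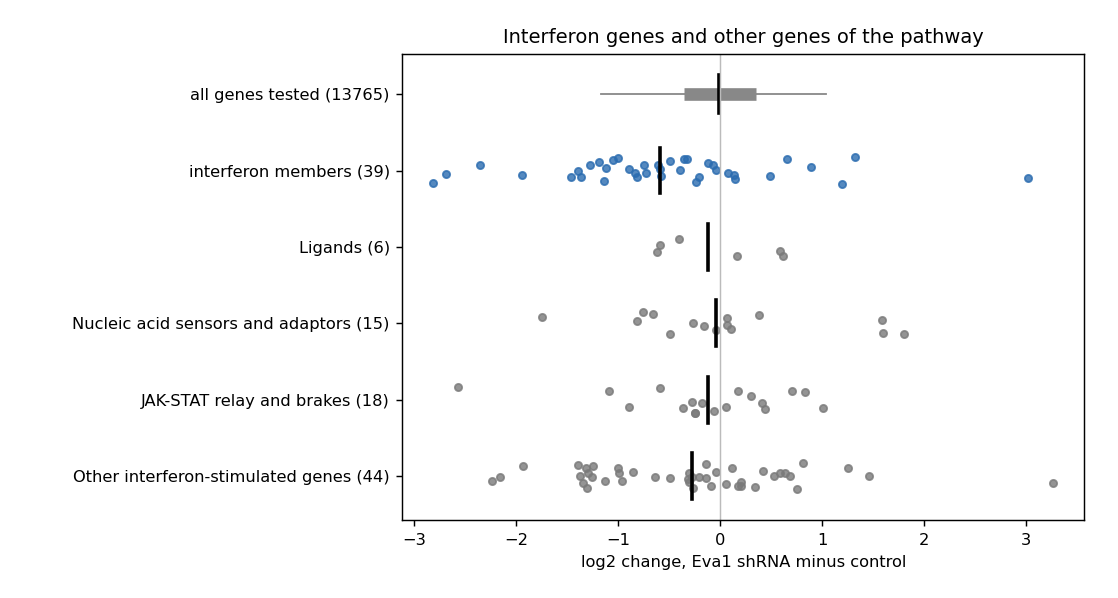
Log2 change, Eva1 shRNA minus control (x axis), of the 39 tested interferon genes (blue points) and of the tested genes of 4 other lists of the pathway (grey points), 1 point per gene, with black bars at the medians. For all 13765 genes the thick bar spans the 25th to 75th percentile (-0.36 to 0.35) and the thin line the 5th to 95th (-1.16 to 1.04).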

How the data were processed

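Total RNA of 4 NSCL61 samples was amplified and read with the Cy5 dye alone on a mouse chip of the 3D-Gene kind, per the labels' protocols. The deposited intensity values are linear and were scaled by the authors to a median near 25 on each array, as the values show. How cells came to be blank, the scanner, the background step and the build are not given in the sources used. Probe symbols came from the platform annotation and were updated through a RefSeq table (GRCm38.p6). Of 23473 probes 6842 had no symbol and the rest had 1, and 3 of the interferon genes were found by an older name. A probe named Gbp4, once also a name of Gbp3, is given as Gbp4.

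Probes with a value on all 4 arrays (19199) were used. Array medians over them differed by 0.274 on the log2 scale, so log2 intensities were quantile normalized, and each gene was given its brightest probe (13765 genes). Groups were compared with limma 3.58.1 (R 4.3.3, lmFit and eBayes, 2 residual degrees of freedom), two-sided, at an adjusted p under 0.05 (Benjamini-Hochberg, over all genes). The fit was tested on simulated data. The number of arrays limits the precision. Same-numbered arrays of the groups showed a correlation of deviations of -0.02, so the number was not taken as a pairing.

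The interferon genes, lists and tests were chosen with earlier results of these data known. All 48 genes are accounted for, and of each other list the 4 genes with the smallest p are named. The alternatives kept the authors' scaling or centred medians, dropped the dimmest 25% of probes, added 16 units ahead of the logarithm, set blank cells to their array's lowest value, used the array number as a block, gave eBayes a trend, averaged a gene's probes or left out 1 array. Figures were drawn with matplotlib 3.10.9 (Python 3.11.15).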

Additional observations from a re-analysis of the deposited data

Results flagged for a closer look

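Ifit1 lies outside the test because its probe was blank on both control arrays, and it carried a value on both Eva1 shRNA arrays, 2.03 on array 1 and 2.18 on array 2. The lowest values of those arrays were 1.19 and 1.22, so no fold is given.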

How the results depend on the processing

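No call among the 23 interferon genes that passed changed sign in the 12 alternatives, and 7 kept their call in every alternative that tested them. Of the counts, 11 interferon genes fell in place of 19 with blank cells filled, and 2714 genes in all rose in place of 1720 with the authors' scaling (67.7% of all calls higher, against 48.1%). With 1 array left out, the interferon genes that fell numbered 7 to 15 and those that rose 1 to 3, the other pathway genes that fell 10 to 16 and rose 4 to 8, and all genes that fell 730 to 1156 and rose 541 to 1145. With the array number as a replicate block 18 interferon genes fell and 4 rose. Of the genes named, that fit ended the calls of Irf2 (adjusted p = 0.0580), Ifnl3 (0.0613), Ifne (0.0694), Ticam1 (0.0520) and Gbp7 (0.0756) and no other call. Among genes that did not pass, the log2 change turned sign with the authors' scaling for Ifnar2 (0.092), Irf3 (0.14) and Ifitm2 (0.10), and with 1 array left out for Ifngr2 (-0.10 without control array 2, -0.013 without Eva1 shRNA array 2, in a range of -0.10 to 0.26), Irf3 (0.20 without control array 1, 0.019 without Eva1 shRNA array 2, in a range of -0.28 to 0.20) and Trex1 (-0.072 without control array 2, in a range of -0.072 to 0.34). The causes were not tested. Signal over background limits 9 of the 23 genes, whose mean in the dimmer group lay below 25, and 7 genes had a change over 1.5 times smaller with 16 units added.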

Other observations

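The guanylate-binding proteins, chosen here after their values were seen, went both ways. Beside Gbp2, Gbp6 had intensities of 10.4 and 15.98 (control) and 27.4 and 46.5 (Eva1 shRNA) and a log2 change of 1.25 (standard error 0.33, adjusted p = 0.0442), or 0.73 with 16 units added, and Gbp7 had intensities of 11.2 and 11.6 (control) and 19.7 and 18.5 (Eva1 shRNA) and a change of 0.53 (standard error 0.14, adjusted p = 0.0419), or 0.25 with 16 units added. Gbp4 fell, from 466 and 485 to 229 and 221, a change of -1.26 (standard error 0.14, adjusted p = 0.00402) that passed in all 12 alternatives. A second, dimmer probe of Gbp4 read 63.7 and 59.7 in the control cells and 42.1 and 61.4 in the Eva1 shRNA cells. Gbp5 did not pass, at -0.14 (standard error 0.16, adjusted p = 0.542), and its sign turned with the authors' scaling (0.046). In adjusted p, the call of Gbp6 was lost after filling blank cells (0.136) and on omitting control array 1 (0.171) or 2 (0.0736) or Eva1 shRNA array 2 (0.139), in a range of 0.00112 to 0.171 over its 12 alternatives, and the call of Gbp7 was lost with 16 units added (0.0561) and on omitting control array 1 (0.1) or 2 (0.105) or Eva1 shRNA array 1 (0.171) or 2 (0.161), in a range of 0.0125 to 0.171 over its 12 alternatives.

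Cmpk2, a nucleotide kinase gene induced by interferon and also chosen after its values were seen, was blank on control array 1, at 3.11 on control array 2, and at 22.4 and 23.5 on the Eva1 shRNA arrays. Tgtp1, an interferon-induced GTPase gene, was blank on control array 1, at 1.76 on control array 2, and at 4.36 and 5.19 on the Eva1 shRNA arrays. Neither was tested.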
